A study of Mus musculus with 69 samples.

Results

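The genes described here encode the PPAR, RXR and LXR nuclear receptors of bone marrow-derived macrophages (BMDMs), with a coactivator of the PPARs. They were chosen as named members of these receptor families, with earlier results of these data known: Pparg, Ppard, Ppara, Rxra, Rxrb, Nr1h2 (LXRβ), Nr1h3 (LXRα) and Ppargc1b (PGC-1β), 8 of the 24537 genes in each of the 3 expression tables and of the 24527 genes in each of the 2 allele tables. Poly(A) RNA was sequenced from BMDMs of female mice left untreated (basal) or given IL-4 at 20 ng/ml. The first experiment compared the inbred strains SPRET/EiJ (SPRET), PWK/PhJ (PWK), NOD/ShiLtJ (NOD), BALB/cJ (BALB) and C57BL/6J (C57) at basal and after 24 h of IL-4, with 3 libraries in each group except PWK basal with 2. The second followed C57 and SPRET at basal, 1, 6 and 24 h with 2 libraries each. The third followed, at the same times and also with 2 libraries each, Egr2 fl/fl cells (Egr2WT) and Egr2 fl/fl cells carrying LyzM-Cre (Egr2MKO), in which a recombinase driven in myeloid cells removes Egr2, an IL-4-induced transcription factor, so that both genotypes carry the floxed allele. F1 hybrids of C57 with SPRET and of C57 with NOD, at basal and 24 h with 2 libraries each, gave values for each parental allele in the same cells.

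PPARs and LXRs bind DNA as pairs with an RXR receptor. PPARs are activated by fatty acids and their derivatives and LXRs by oxidised cholesterol, and each switches on genes for handling the lipid that activates it. Pparg is known as an IL-4-induced gene of macrophages, the LXRs as regulators of cholesterol efflux and lipogenesis, and Ppargc1b as a coactivator that raises oxidative metabolism.

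Levels are in TPM, a count of transcripts scaled by library depth and by gene length, so that they can be compared between genes. The genes listed summed to 602020 to 690215 TPM per library, short of the total of a full TPM table, and the sum differed between groups, at 686422 to 690215 TPM in SPRET at basal against 654764 to 657584 TPM with IL-4. Differences are log2 fold changes of TPM with 1 added, so changes of low genes are understated. A difference passed where its adjusted p was under 0.05 in limma with Benjamini-Hochberg adjustment over all genes tested, and ± after a difference is its standard error. Sequencing depth ran from 4.69 to 32.9 M tags over the 61 libraries of the expression tables. Nothing in the labels says whether replicates came from separate mice, so p-values measure only the spread between these samples. In bulk RNA a smaller share of cells of a type and less RNA per cell cannot be told apart. Marker lists moved with strain and with IL-4, and their part in the results below was not tested. The 7 macrophage markers summed to between 9325 and 53701 TPM in each library, and the 4 adipocyte and 4 B cell markers were each under 1 TPM in every library. Lyz2 made up most of the macrophage sum. Fcgr1 was as low as 0.265 TPM in the strain experiment and 0 TPM in the time course, and Mertk as low as 0.569 TPM in the strain experiment. In the time course the mast cell or basophil list, mostly Mcpt8, summed to 10.6 to 21.7 TPM in SPRET and to 0.582 TPM or less in C57. In the strain experiment the 4 neutrophil markers, mostly S100a8, summed to 343 to 403 TPM in SPRET and 357 to 367 TPM in PWK at basal against 38.6 to 112 TPM in the other strains, and were lower with IL-4 in each strain, while Ly6g reached 0.276 TPM at most. The T cell list was higher with IL-4 through Lat (up to 75.2 TPM), with Cd3e and Cd3g at 0.26 TPM or less, and the fibroblast list was highest in PWK through Dcn (up to 208 TPM), with Col1a1 and Col3a1 at 0.066 TPM or less. Arg1, an IL-4 marker gene, averaged 126 TPM in C57 at basal and 3411 TPM with IL-4, and 5.59 and 74.6 TPM in NOD, while Retnla averaged 3.94 and 4.34 TPM in C57 and was at 0 in NOD and PWK. Egr2, the deleted gene, averaged 22.5 TPM in Egr2WT and 0.86 TPM in Egr2MKO at basal, and 100.1 TPM against 5.89 TPM at 24 h.

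The sequences below show why the Pparg tables cannot be set side by side and which letters lie ahead of annotated starts of the genes that moved most. The expression tables list Pparg (plus strand) on chromosome 6 from 115360951 to 115490401 (mm10), while the C57xNOD allele table starts it at 115362349 and the C57xSPRET allele table at 115422066. For 7 of the 8 genes RefSeq (GRCm38.p6, the same build) gave 12 promoter windows of the 250 bases before a start. There was no entry for Ppargc1b. The other genes lie on chromosome 17 (Ppard, 28232754 to 28301469, and Rxrb, 34031812 to 34038403, both plus strand), chromosome 2 (Rxra, 27709292 to 27763319, plus strand, and Nr1h3, 91184061 to 91195035, minus strand), chromosome 7 (Nr1h2, 44549616 to 44553965, minus strand) and chromosome 15 (Ppara, 85735564 to 85806851, plus strand). Each is printed 5′ to 3′ on the gene's strand, and capitals mark a match to a searched motif. The motifs, searched on both strands, were the receptor core site AGGTCA, its direct repeats with 1 base (DR1) or 4 bases (DR4) between the copies, which both contain the core site, the EGR motif GCGNGGGCG, STAT motifs made of TTC and GAA with 4 or 3 bases between them, and the PU.1 motif GAGGAAGT.
Pparg chr6:115360894-115361143 (+): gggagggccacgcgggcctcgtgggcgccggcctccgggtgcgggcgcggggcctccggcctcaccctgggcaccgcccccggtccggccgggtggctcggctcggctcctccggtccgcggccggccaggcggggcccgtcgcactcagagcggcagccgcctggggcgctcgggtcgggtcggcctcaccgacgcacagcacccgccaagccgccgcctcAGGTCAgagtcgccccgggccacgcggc
Pparg chr6:115362099-115362348 (+): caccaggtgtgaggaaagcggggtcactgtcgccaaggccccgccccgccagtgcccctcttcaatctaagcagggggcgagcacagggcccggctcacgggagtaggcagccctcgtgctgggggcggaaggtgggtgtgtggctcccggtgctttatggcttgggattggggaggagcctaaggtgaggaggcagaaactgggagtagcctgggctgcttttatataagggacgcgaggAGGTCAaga
Pparg chr6:115421816-115422065 (+): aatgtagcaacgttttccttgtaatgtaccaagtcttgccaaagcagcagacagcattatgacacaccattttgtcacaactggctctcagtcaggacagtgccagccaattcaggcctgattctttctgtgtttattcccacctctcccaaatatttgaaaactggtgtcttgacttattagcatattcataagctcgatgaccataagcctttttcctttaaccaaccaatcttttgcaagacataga
Ppard chr17:28232504-28232753 (+): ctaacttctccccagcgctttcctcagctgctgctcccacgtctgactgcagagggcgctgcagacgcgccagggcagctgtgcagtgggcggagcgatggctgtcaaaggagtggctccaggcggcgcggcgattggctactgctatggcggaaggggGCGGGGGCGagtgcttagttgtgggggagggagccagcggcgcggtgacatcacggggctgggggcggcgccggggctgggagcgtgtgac
Nr1h3 chr2:91195036-91195285 (-): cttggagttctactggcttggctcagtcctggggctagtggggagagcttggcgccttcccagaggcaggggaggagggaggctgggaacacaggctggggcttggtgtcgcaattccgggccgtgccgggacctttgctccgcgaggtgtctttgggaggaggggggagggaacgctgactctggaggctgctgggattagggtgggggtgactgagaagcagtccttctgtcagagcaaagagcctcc

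The first Pparg window held the core site 28 to 23 bases before its start and the second 9 to 4 bases before it, and the third held none of the motifs. The first window ends at 115361143, past the start of 115360951 listed for the expression values. Most of it, the core site included, thus lies inside Pparg as listed there. Of 32851 promoter windows of this length, 14% held a core site. Ppard, the PPAR delta gene, had an EGR motif 91 to 83 bases before its start, a motif found in 4.7% of windows. Ppara also had an EGR motif, and 1 of the Rxra windows had 2 core sites. No searched motif was found in the Nr1h3 window, which says only that these letters are not in it. No member window held a DR1 (0.0335% of all windows), a DR4 (0.0152%), a PU.1 motif (2.44%), or either STAT motif (5.85% with the longer spacer and 7.02% with the shorter).

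In C57 cells at basal the LXRβ gene Nr1h2 was the highest of the 8, with 81.7, 86.1 and 75.3 TPM. Rxrb, at 36.3, 36.8 and 37.7 TPM, and Nr1h3, at 36.4, 35.8 and 34.9 TPM, came next and their libraries overlapped. Ppard, at 21.0, 23.0 and 19.3 TPM, and Rxra, at 19.0, 20.2 and 16.1 TPM, overlapped as well. Pparg was low at 4.08, 3.4 and 4.08 TPM, and Ppargc1b lower at 2.20, 2.66 and 2.10 TPM. Ppara, the PPAR of liver fat oxidation, was listed at 0 in 26 of the 29 libraries of the strain experiment and reached 0.015 TPM at most, and it was at 0 in all libraries of the time course and the Egr2 experiment. It did not reach 1 TPM in 2 libraries and was not tested, so 7 of the 8 genes entered each test.

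The first question was how IL-4 changed these genes in each strain. Pparg was the 1 member that rose in all 5 strains. In C57 it went from the basal values above to 23.2, 23.8 and 23.4 TPM (2.34 ± 0.08, adjusted p = 5.7e-18 by limma). BALB went from 5.51, 5.51 and 4.97 to 16.5, 13.7 and 14.2 TPM, and NOD from 5.52, 5.17 and 4.44 to 14.1, 13.7 and 13.9 TPM. PWK went from 2.67 and 2.55 to 15.2, 14.4 and 14.9 TPM. SPRET started lowest, at 1.18, 1.2 and 0.93 TPM, and reached 9.36, 10.5 and 10.8 TPM. Basal and IL-4 libraries did not overlap in any strain, and the rise was past 2-fold in each, with log2 changes of 2.42 in SPRET, 2.13 in PWK, 1.32 in BALB and 1.31 in NOD. Genes that rose past 2-fold made up 2.28% of all genes tested in C57, 2.32% in SPRET, 1.54% in PWK, 1.27% in BALB and 0.731% in NOD.

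**Figure D1:**
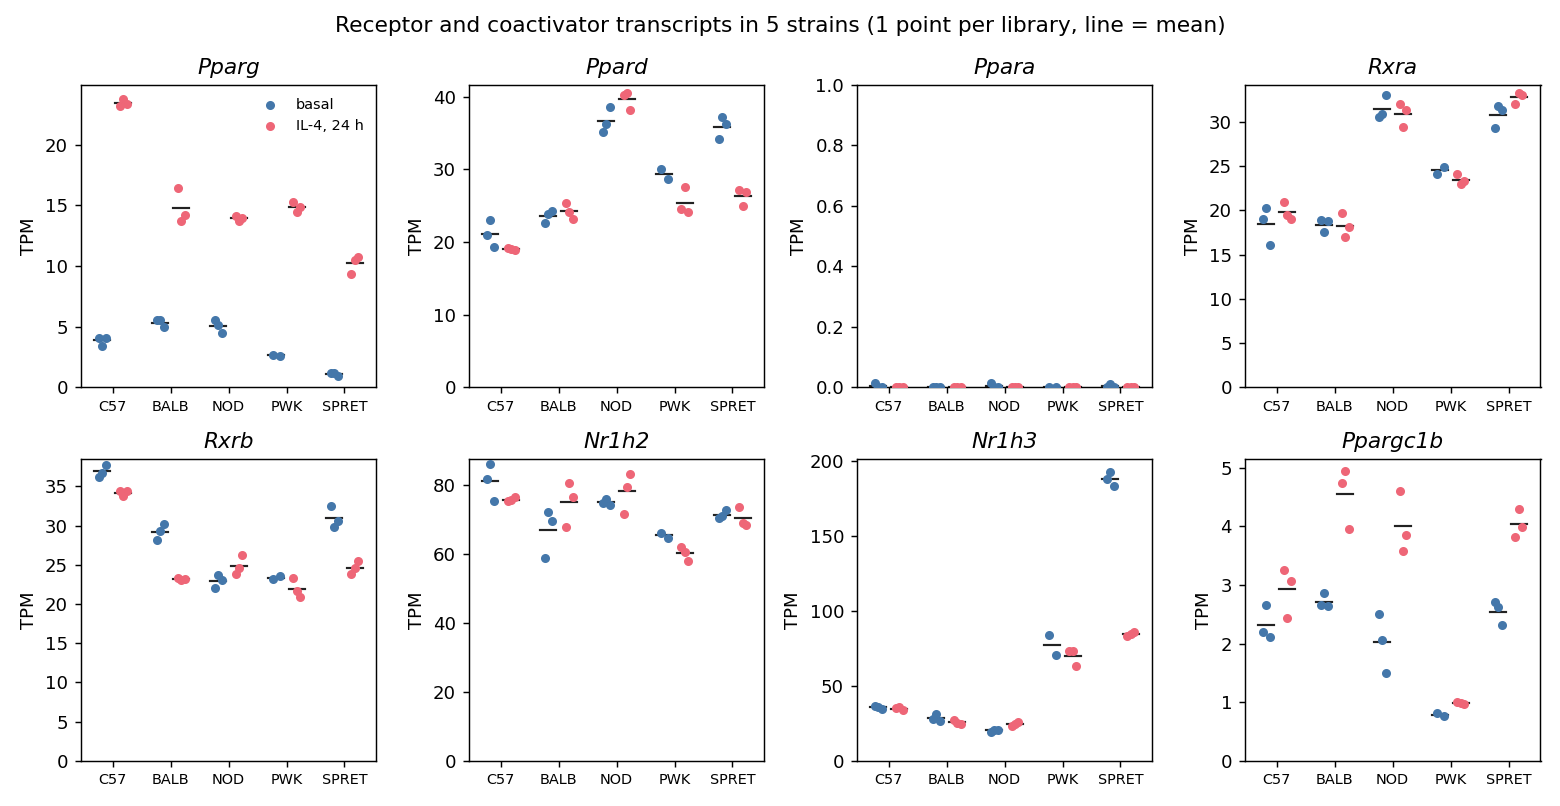
TPM of the 8 genes in each library of the 5 strains, basal and after 24 h of IL-4, with points for libraries and short lines for group means. Pparg is higher with IL-4 in every strain, and Nr1h3 has its highest values, 183 to 193 TPM, in untreated SPRET.

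The order of strains for Pparg differed between the conditions. At basal BALB and NOD overlapped at the top, followed by C57, PWK and SPRET, each separate from the next. After IL-4 C57 was highest and separate, PWK, BALB and NOD overlapped in turn, and SPRET was again lowest and separate. These levels are a description of the groups above.

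Among the other genes fewer passed, and with TPM as deposited neither Rxra nor Nr1h2 passed in any strain. With median-ratio scaling Rxra passed in C57 (0.15), NOD (-0.21) and PWK (-0.18), and Nr1h2 in BALB (0.30). As deposited, in C57 1 of 7 genes tested passed, where 35.5% of all 11907 genes tested did, and in BALB 3 of 7 against 34.2%. In NOD 3 of 7 passed against 34.3%, in PWK 2 of 7 against 24.7%, and in SPRET 5 of 7 against 44.4%. By direction, 1 rose and 0 fell in C57 (15% and 20.5% of all genes), 2 rose and 1 fell in BALB (9.45% and 24.8%), 3 rose and 0 fell in NOD (28.2% and 6.07%), 1 rose and 1 fell in PWK (18.6% and 6.08%), and 2 rose and 3 fell in SPRET (31.4% and 12.9%). The count in C57 was below the share of all genes and that in SPRET above it, and those in BALB, NOD and PWK were near it. With 7 genes none of these counts is read as a result about the members.

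Nr1h3, the LXRα gene whose own product is known to be lipid-activated, fell past 2-fold in SPRET. Its SPRET libraries were at 188, 193 and 183 TPM at basal and at 83.0, 84.9 and 86.1 TPM with IL-4, a change of -1.14 ± 0.07 (adjusted p = 2.1e-13 by limma), in a contrast where 1.62% of genes fell past 2-fold. The IL-4 values of SPRET remained above every C57, BALB and NOD library of either condition. In NOD, where it was lowest, it went from 19.3, 20.7 and 20.9 to 23.3, 24.5 and 25.6 TPM (0.26 ± 0.07, adjusted p = 0.0037 by limma), a call lost with median-ratio and with quantile scaling. Nr1h3 shares 34 exonic bases with Gm13783 on the same strand, and reads there cannot be assigned to either gene.

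Ppargc1b rose in BALB, from 2.65, 2.86 and 2.64 to 4.74, 4.94 and 3.96 TPM (0.57 ± 0.11), in NOD from 2.50, 2.06 and 1.50 to 4.61, 3.58 and 3.84 TPM (0.74 ± 0.11), and in SPRET from 2.7, 2.62 and 2.31 to 3.81, 4.30 and 3.99 TPM (0.51 ± 0.11). Groups did not overlap in these 3 strains. C57 libraries with IL-4, at 3.26, 2.44 and 3.07 TPM, overlapped its basal ones. PWK was lowest in both conditions, at 0.809 and 0.765 TPM and then 0.998, 0.991 and 0.970 TPM.

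Rxrb, an RXR partner gene, fell in BALB from 28.2, 29.3 and 30.2 to 23.3, 23.1 and 23.2 TPM and in SPRET from 32.4, 29.8 and 30.6 to 23.8, 24.6 and 25.5 TPM, by 0.32 on the log2 scale in each. Ppard fell in SPRET from 34.2, 37.2 and 36.3 to 27.2, 25.0 and 26.8 TPM (-0.43 ± 0.06). In PWK its change was -0.21 ± 0.07 (adjusted p = 0.027 by limma), and the call was lost without PWK basal replicate 1 (-0.17) or 2 (-0.24) and without PWK IL-4 replicate 1 (-0.18) or 3 (-0.17), as it was with only the 2 PWK groups in the fit. With median-ratio scaling the counts of members higher and lower became 4 and 1 in BALB, 1 and 4 in PWK, 2 and 1 in NOD, 2 and 0 in C57 and, as before, 2 and 3 in SPRET. The median change over all genes was -0.11 in BALB, 0.12 in NOD and 0.11 in SPRET as deposited, so that members are read against those shifts.

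**Figure D2:**
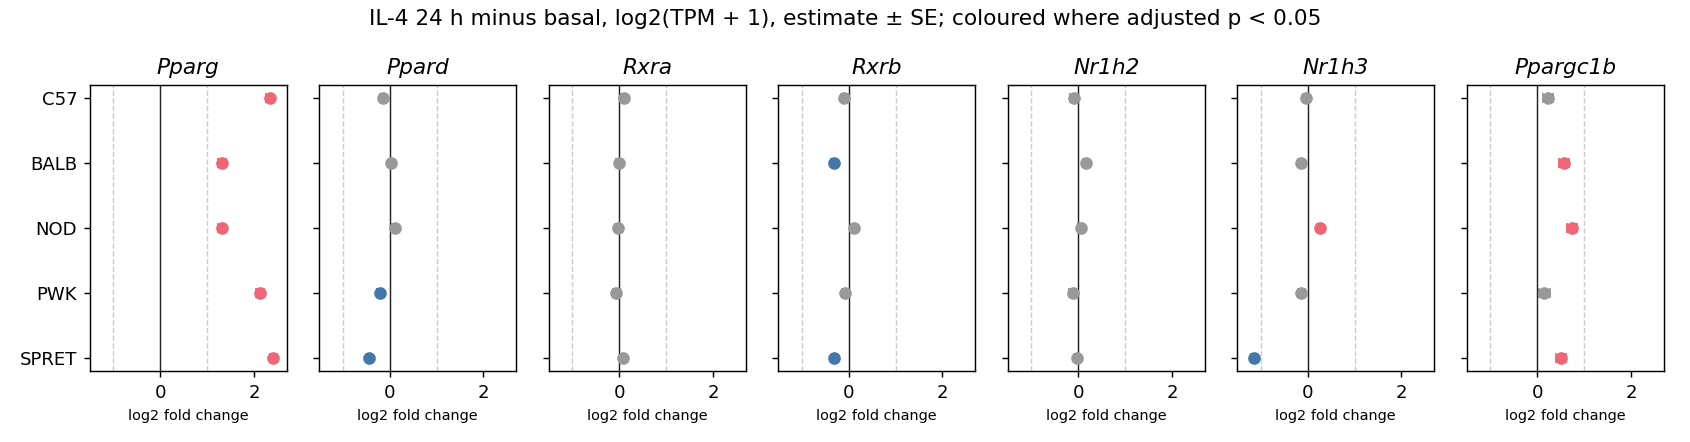
Log2 change of the 7 tested genes after 24 h of IL-4 in each strain, on the horizontal axis, with bars for standard errors, dashed lines at 2-fold, and colour where adjusted p is under 0.05 (red higher, blue lower, grey not passed). Pparg lies at 1.31 or above in every strain, and Nr1h3 in SPRET lies at -1.14.

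The second question was how far the strains differed before IL-4. Most members passed, as did a large share of all genes: 7 of 7 in PWK against C57 (61.3% of genes), 6 in SPRET (68.4%), 5 in NOD (74.2%) and 5 in BALB (43.2%). Nr1h3 had the widest range. Beside the SPRET, C57 and NOD values above, it stood at 83.8 and 70.7 TPM in PWK and at 27.8, 31.1 and 26.4 TPM in BALB. From high to low the order was SPRET, PWK, C57, BALB, NOD, the last at 19.3, 20.7 and 20.9 TPM in NOD, and neighbours in this order did not overlap. Against C57 the differences were 2.36 ± 0.07 in SPRET, 1.09 ± 0.07 in PWK, -0.32 ± 0.07 in BALB and -0.79 ± 0.07 in NOD. The time course, a separate experiment, gave SPRET basal values of 54.7 and 54.1 TPM against 23.5 and 22.4 TPM in C57, so the SPRET value was higher in both experiments but the level differed between them.

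Ppard and Rxra were both higher than C57 in NOD, PWK and SPRET. Basal Ppard was at 35.2, 36.3 and 38.6 TPM in NOD, and NOD and SPRET overlapped, and so did BALB and C57. Differences from C57 were 0.77 in NOD, 0.74 in SPRET, 0.46 in PWK and 0.15 in BALB. The BALB call (adjusted p = 0.044 by limma) was lost with median-ratio scaling, without a filter, with a robust prior, with only the BALB and C57 basal groups in the fit, and in 5 of 29 fits that left out 1 library: C57 basal replicate 1 (0.15) or 3 (0.09), BALB basal replicate 2 (0.15) or 3 (0.13), or SPRET basal replicate 3 (0.15). Rxra was at 30.6, 30.9 and 33.0 TPM in NOD and at 18.9, 17.5 and 18.7 TPM in BALB, and it differed from C57 by 0.75 in NOD, 0.72 in SPRET and 0.40 in PWK.

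Rxrb was lower than C57 in all 4 strains, with differences of -0.66 in NOD, -0.64 in PWK, -0.33 in BALB and -0.25 in SPRET. No library of those strains reached the C57 libraries. The time course had the opposite order for SPRET, whose basal Rxrb was at 42.5 and 47.6 TPM against 26.2 and 28.3 TPM in C57. Nr1h2 varied least, between 58.0 and 86.1 TPM over all 29 libraries. It was below C57 in BALB (-0.28 ± 0.07), PWK (-0.31 ± 0.08) and SPRET (-0.18 ± 0.07). In NOD it did not pass as deposited, but passed as higher than C57 with median-ratio scaling (0.28, adjusted p = 0.0042 by limma). The PWK call was lost with median-ratio scaling and the BALB call with only the groups compared in the fit. The SPRET call was lost without C57 basal replicate 1 (-0.17) or 2 (-0.14) or SPRET basal replicate 1 (-0.17), and in the time course basal Nr1h2 was at 109 and 92.2 TPM in SPRET against 83.2 and 87.5 TPM in C57. Basal differences between the strains in the time course were not tested. Pparg was 0.39 above C57 in BALB and 0.32 above it in NOD, and Pparg differed from C57 by -0.42 in PWK and -1.21 in SPRET. The PWK call was lost with quantile normalization. Ppargc1b differed in PWK, by -0.89 ± 0.12. The median difference of all genes was -0.30 in NOD and -0.16 in PWK.

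The share of the sum of squares over the 29 libraries summarises these values without a test. IL-4 took 78.3% for Pparg and strain 15.8%. For the other 6 tested genes strain took the most, from 62.5% for Nr1h2 to 95.5% for Rxra, and IL-4 took 20.1% for Ppargc1b, 8.55% for Rxrb and 3.31% or less for the rest. Over the same libraries, with r as Pearson's correlation of log2 values given as a description, the gene most like Pparg among 10570 was Snx5 (r = 0.95), followed by Smurf1 (0.94). Aig1 (0.93) and Cxcl14 (0.91) were nearest Ppard, and Gm13363 (0.97) and Myo1d (0.95) nearest Rxra. For Rxrb these were Arhgap19 (0.89) and Mknk1 (0.88), and for Nr1h2 2310009B15Rik (0.83) and Il3ra (0.82). Akr1b8 (0.97) and Rab11a (0.96) were nearest Nr1h3, and Impa1 (0.91) and Endod1 (0.91) nearest Ppargc1b. All points share the same 5 strains and conditions.

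The third question was whether the response itself differed from that of C57, tested as an interaction. The Pparg response was smaller in BALB (-1.02 ± 0.11, adjusted p = 3.2e-07 by limma) and in NOD (-1.03 ± 0.11, adjusted p = 1.5e-07 by limma). The Nr1h3 response was lower in SPRET (-1.11 ± 0.09, adjusted p = 1.1e-09 by limma). C57 Nr1h3 was at a mean of 35.7 TPM at basal and 34.9 TPM with IL-4, so this difference is the fall in SPRET. These 3 calls held in all the other settings tried. In total 2 of 7 members passed in BALB (15.8% of all genes), 5 in NOD (33.3%), 0 in PWK (22.4%) and 3 in SPRET (33.4%). In PWK 0 members were under an unadjusted p of 0.05 by limma, but 2 passed as lower with median-ratio or quantile scaling. These were Rxra (-0.33) and Nr1h3 (-0.28) with median-ratio scaling, and Pparg (-0.41) and Rxra (-0.28) with quantile scaling. The Pparg value in PWK also passed with a pseudocount of 5 (-0.30, adjusted p = 0.0054 by limma). With median-ratio scaling Ppard (0.26) and Nr1h2 (0.35) also passed in BALB, and Rxra in NOD (-0.36) and SPRET (-0.20).

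Smaller differences in response were 0.25 for Ppard, 0.22 for Rxrb, 0.29 for Nr1h3 and 0.50 for Ppargc1b in NOD. All 4 were lost with median-ratio and with quantile scaling, and Ppard and Ppargc1b also with only the groups compared. Rxrb turned to -0.01 with median-ratio scaling, and the median over all genes was 0.17 in this contrast as deposited. Each was also lost without at least 1 library: Rxrb without NOD IL-4 replicate 3 (0.18), Ppargc1b without NOD basal replicate 3 (0.37), Nr1h3 without NOD basal replicate 1 (0.26) or NOD IL-4 replicate 3 (0.26), and Ppard without C57 basal replicate 2 (0.18), C57 IL-4 replicate 3 (0.24), NOD basal replicate 1 (0.22) or 2 (0.24), or NOD IL-4 replicate 1 (0.24) or 2 (0.23). Rxrb differed by -0.22 in BALB and by -0.21 in SPRET, and Ppard by -0.30 ± 0.09 in SPRET. The BALB value was lost with other scalings and in 7 of 29 fits without 1 library, namely C57 basal replicate 1 (-0.20) or 2 (-0.21), C57 IL-4 replicate 1 (-0.21), BALB basal replicate 2 (-0.21) or 3 (-0.19), or BALB IL-4 replicate 2 (-0.21) or 3 (-0.22). The SPRET value of Rxrb was lost without SPRET basal replicate 1 (-0.18) or SPRET IL-4 replicate 1 (-0.19).

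For Pparg in SPRET the difference in response from C57 was 0.08 with adjusted p = 0.62 by limma. This value depends on the pseudocount because SPRET starts near 1 TPM: it was 0.53 (adjusted p = 0.005) with 0.1 added and -0.37 (adjusted p = 0.00029) with 5 added. No direction is given for it.

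Lists of known target genes of the receptors were counted too, and whether the receptors had a part in their changes was not tested. Of 14 PPAR target genes 11 were tested, and those that rose and fell numbered 9 and 2 in NOD, 8 and 0 in SPRET, 6 and 0 in PWK, 5 and 1 in C57 and 3 and 5 in BALB. Their median change was 0.41 in SPRET, 0.38 in NOD, 0.32 in PWK, 0.20 in C57 and -0.02 in BALB, beside medians over all genes of 0.11, 0.12, 0.08, -0.04 and -0.11. Of all genes 28.2% rose and 6.07% fell in NOD, 31.4% and 12.9% in SPRET, and 18.6% and 6.08% in PWK. The same shares were 15% and 20.5% in C57 and 9.45% and 24.8% in BALB. Cd36, the fatty acid and oxidised lipoprotein receptor, rose in all 5 strains, from 0.81 in BALB to 2.07 in SPRET. Fabp4, a fatty acid carrier, rose from a mean of 14.4 to 61.5 TPM in SPRET (2.02) and fell from 599 to 507 TPM in C57 (-0.24), a C57 call lost with median-ratio scaling. Hilpda, a lipid droplet protein, changed by 1.48 in C57, 0.53 in PWK, 0.49 in BALB and -0.21 in NOD, and did not pass in SPRET. The NOD call was lost with quantile scaling. The BALB split of the list is set by scaling, since 5 rose and 0 fell with median-ratio values.

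All 12 LXR target genes were tested, and 2 rose and 4 fell in C57, 3 and 4 in BALB, 6 and 0 in NOD, 3 and 1 in PWK, and 8 and 3 in SPRET. Their median change was 0.35 in SPRET, 0.27 in NOD, 0.13 in PWK, 0.04 in BALB and -0.10 in C57, beside the medians over all genes just given. Shares of all genes that rose and fell were 31.4% and 12.9% in SPRET, 28.2% and 6.07% in NOD, 18.6% and 6.08% in PWK, 9.45% and 24.8% in BALB, and 15% and 20.5% in C57, so that with 12 genes the counts in C57 and PWK are near those shares. In BALB the split became 4 and 2 with other scalings, and in NOD 3 and 1 with median-ratio scaling. Abcg1, a cholesterol exporter, rose by 0.80 in C57, 0.70 in NOD, 0.68 in PWK and 0.79 in SPRET. In BALB its change of 0.16 did not pass as deposited, but it passed with median-ratio (0.30) and quantile (0.21) scaling. Scd2, a fatty acid desaturase, rose by 1.29 in SPRET, and Arl4c, a small GTPase, rose in all 5 strains, by 0.92 in C57 and 0.26 in NOD, the NOD call being lost with median-ratio scaling.

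Among 8 tested genes that make or clear ligands, Ch25h, which forms the LXR ligand 25-hydroxycholesterol, rose in all 5 strains, by 4.15 in C57, 3.47 in PWK, 2.72 in SPRET, 1.41 in BALB and 1.29 in NOD. Its C57 mean went from 0.71 to 29.4 TPM. Ptgs1, a cyclooxygenase of prostaglandin synthesis, also rose in all 5, by 0.81 in SPRET to 1.55 in C57. Cyp27a1, a sterol hydroxylase, fell in C57 (-0.50), BALB (-0.35) and SPRET (-0.31), the BALB call being lost with other scalings. The median of the 8 was between -0.08 in C57 and 0.11 in SPRET. Of 15 tested coregulator genes 1 to 5 rose and 0 to 4 fell in a strain, with medians between -0.24 in BALB and 0.20 in NOD. Of all genes 9.45% to 31.4% rose and 6.07% to 24.8% fell in a strain, with medians of -0.11 in BALB and 0.12 in NOD. Pprc1, a coactivator related to PGC-1, rose in C57 (0.23) and SPRET (0.41) and fell in BALB (-0.27), the BALB call being lost with other scalings. Of 4 tested receptors that also pair with RXR 0 to 2 passed in either direction, beside the same shares of all genes. With 4 genes no result is read from that count.

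The time course asked when the genes moved in C57 and SPRET. At 1 h 0 of 7 members passed in C57 by limma, with 0 under an unadjusted p of 0.05, where 3.95% of all genes passed. In SPRET at 1 h 1 of 7 passed (8.75% of genes): Pparg went from 3.42 and 2.42 to 5.54 and 5.32 TPM (0.73 ± 0.12), a call lost with only the 2 groups compared in the fit. At 6 h 3 of 7 passed in C57 (20.4%) and 3 in SPRET (30.6%), and at 24 h 3 in C57 (39.4%) and 6 in SPRET (36.6%).

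Pparg passed at 6 and 24 h in both strains. In C57 it stood at 8.69 and 9.39 TPM at basal, 10.1 and 10.2 at 1 h, 29.3 and 30.7 at 6 h, and 77.1 and 70.6 at 24 h, with changes of 1.63 ± 0.12 at 6 h and 2.90 ± 0.12 at 24 h. SPRET reached 15.7 and 12.5 TPM at 6 h (1.95) and 20.8 and 21.5 TPM at 24 h (2.51). No SPRET library reached a C57 library of the same time. In the fit reported its response did not pass a test of the difference between the strains at any time, with values for SPRET minus C57 of 0.58 at 1 h (adjusted p = 0.15 by limma), 0.33 at 6 h (adjusted p = 0.28) and -0.39 at 24 h (adjusted p = 0.11). The 24 h value depends on the pseudocount, as in the strain experiment: with 5 added it passed at -0.76 (adjusted p = 0.00038), and with 0.1 added it was -0.18 (adjusted p = 0.56). It also passed without SPRET basal replicate 2 (-0.57, adjusted p = 0.018), and the 1 h value passed without SPRET basal replicate 1 (0.76, adjusted p = 0.027).

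**Figure D3:**
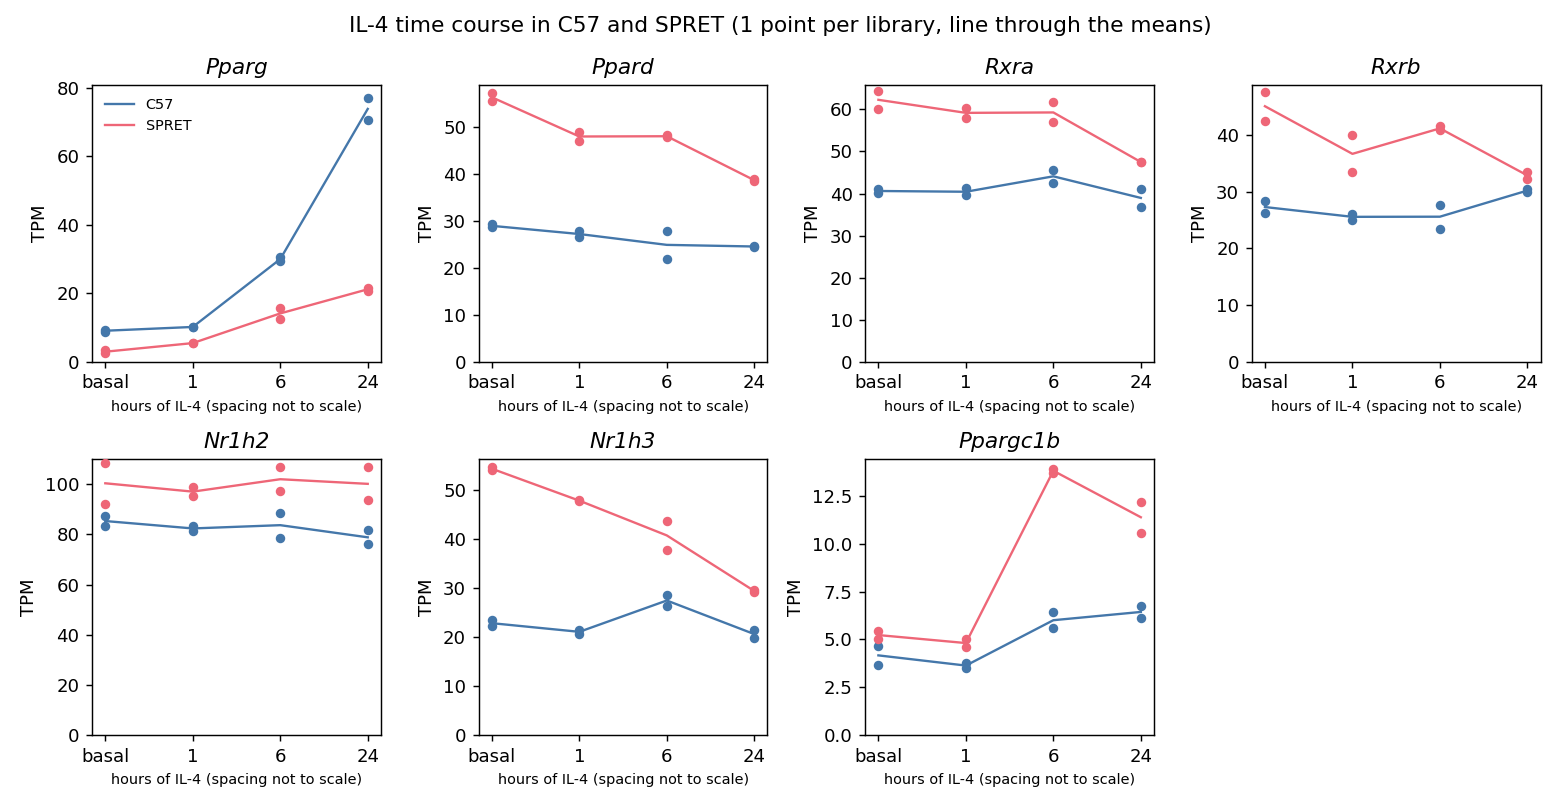
TPM of the 7 tested genes at basal and 1, 6 and 24 h of IL-4 (times not spaced to scale) in C57 and SPRET, with a point for each library and lines through group means. Pparg climbs in both strains and is higher in C57, and Nr1h3 is lower at 6 and 24 h in SPRET than its basal 54.7 and 54.1 TPM.

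Nr1h3 in SPRET stood, after the basal values above, at 48.0 and 47.8 TPM at 1 h, 43.8 and 37.9 TPM at 6 h and 29.3 and 29.7 TPM at 24 h. Its change passed at 6 h (-0.41) and 24 h (-0.86), and its response differed from that of C57 by -0.66 at 6 h and -0.72 at 24 h. In C57 it was 0.25 above basal at 6 h, a call lost with quantile scaling, with only the groups compared, and without C57 basal replicate 1 (0.29) or 2 (0.22) or C57 6 h replicate 1 (0.20). The 6 h call in SPRET was also lost with only the groups compared.

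Ppargc1b was highest at 6 h in SPRET, where it went from 5.42 and 5.04 TPM to 13.9 and 13.7 TPM (1.25 ± 0.11), and stood at 12.2 and 10.6 TPM at 24 h (0.99). In C57 it was at 4.67 and 3.67 TPM, then 6.42 and 5.59 TPM at 6 h (0.44) and 6.77 and 6.10 TPM at 24 h (0.53). The 6 h call in C57 was lost without C57 basal replicate 2 (0.30) or C57 6 h replicate 1 (0.36), and both C57 calls with only the groups compared. The SPRET response was the larger by 0.81 ± 0.16 at 6 h (adjusted p = 0.006 by limma). At 24 h the difference of 0.46 had adjusted p = 0.0497 by limma. It was lost with quantile scaling, a pseudocount of 0.1, no filter, a robust prior and only the groups compared, and in 12 of 16 fits without 1 library, where it lay between 0.32 without C57 basal replicate 1 and 0.52 without C57 24 h replicate 1.

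At 24 h in SPRET the receptor partners fell too: Rxra from 60.1 and 64.4 to 47.6 and 47.4 TPM (-0.38), and Rxrb from 42.5 and 47.6 to 33.4 and 32.3 TPM (-0.44). The Rxra fall did not appear in the strain experiment, where its SPRET libraries with IL-4 were at 32.1, 33.3 and 33.0 TPM against 29.3, 31.9 and 31.3 TPM at basal. Ppard fell from 55.4 and 57.1 to 38.8 and 38.4 TPM (-0.53). In C57 Ppard changed by -0.23 at 24 h with adjusted p = 0.048 by limma, and this call was lost with median-ratio scaling, without a filter and in 14 of 16 fits without 1 library (the 2 exceptions left out a C57 6 h library), with adjusted p up to 0.16 and values of -0.21 to -0.24. The response at 24 h differed between strains for Rxra (-0.32), Rxrb (-0.58), Nr1h3 (-0.72) and Ppargc1b (0.46), 4 of 7 against 28.9% of genes. The Rxra difference was lost with median-ratio scaling and without C57 basal replicate 1 (-0.31), C57 24 h replicate 1 (-0.24), SPRET basal replicate 2 (-0.27) or SPRET 24 h replicate 1 (-0.33) or 2 (-0.32). At 6 h 2 of 7 passed (11.1%) and at 1 h 0 of 7 (2.32%), with 1 under an unadjusted p of 0.05 by limma.

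The Egr2 experiment asked what these genes did in cells lacking Egr2. In Egr2WT cells 0 of 7 members passed at 1 h (3.24% of genes, and 0 members under an unadjusted p of 0.05 by limma), 3 at 6 h (25.5%) and 5 at 24 h (30.3%). Pparg went from 12.7 and 12.5 TPM to 30.8 and 34.9 TPM at 6 h (1.31 ± 0.07) and 47.3 and 49.6 TPM at 24 h (1.86 ± 0.07). Ppargc1b rose at 6 h, from 4.35 and 4.83 to 8.13 and 9.01 TPM (0.78), and stood at 5.90 and 5.92 TPM at 24 h. At 24 h Rxrb was lower by 0.39, with a difference of -0.39 ± 0.07.

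Weaker calls in Egr2WT were Ppard at 6 h (-0.35) and 24 h (-0.39), Nr1h2 at 24 h (-0.21) and Nr1h3 at 24 h (0.34). All 4 were lost with only the groups compared, and that of Nr1h2 with median-ratio scaling. Without Egr2WT basal replicate 1 the calls of Ppard at 6 h (-0.30) and 24 h (-0.34) and of Nr1h2 (-0.18) were lost, as they were without Egr2WT 6 h replicate 1 (Ppard at 6 h, -0.31) and Egr2WT 24 h replicate 2 (Ppard -0.28, Nr1h2 -0.16). Nr1h3 was lost without Egr2WT basal replicate 2 (0.23) or Egr2WT 24 h replicate 1 (0.34) or 2 (0.34). With 1 of these libraries out, the count over the 3 times went from 8 to as few as 5, without Egr2WT basal replicate 1 or Egr2WT 24 h replicate 2.

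In Egr2MKO cells Pparg and Ppard were lower and Nr1h3 higher. Marker lists moved with genotype too, and their part in these differences was not tested. At 24 h the 7 macrophage markers summed to 12727 to 13267 TPM in Egr2MKO against 15408 to 15632 TPM in Egr2WT. Most of that sum is Lyz2, the gene whose locus carries LyzM-Cre, at 8044 to 8455 TPM against 11662 to 11825 TPM, and without Lyz2 the sum was higher in Egr2MKO, at 4683 to 4812 TPM against 3746 to 3807 TPM. The T cell list was at 5.52 to 5.82 TPM against 25.1 to 27.0 TPM, through Lat (2.39 to 2.63 against 21.6 to 23.9 TPM), while Cd3e and Cd3g were at 0.181 TPM or less. The neutrophil list was at 6.32 to 7.04 TPM against 12.1 to 13.2 TPM, nearly all of it S100a8, with Ly6g at 0 in both. Members that passed against Egr2WT were 3 of 7 at basal (11.5% of genes), 2 at 1 h (11.4%), 3 at 6 h (20.6%) and 5 at 24 h (37.4%). Pparg stood at 9.58 and 9.78 TPM at basal, 10.7 and 11.1 at 1 h, 21.7 and 20.4 at 6 h, and 28.2 and 29.2 TPM at 24 h, each below both Egr2WT libraries of that time. Its differences were -0.35 at basal, -0.62 at 6 h and -0.73 ± 0.07 at 24 h (adjusted p = 4.9e-06 by limma). The basal and 6 h calls were lost with only the groups compared in the fit.

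Ppard was lower at all 4 times, at 23.0 and 21.5 TPM against 33.0 and 30.8 TPM at basal (-0.50) and at 15.6 and 14.1 TPM against 26.0 and 22.3 TPM at 24 h (-0.66 ± 0.09). At 6 h its difference of -0.42 was lost without Egr2WT 6 h replicate 2 (-0.39) and with only the groups compared. The Ppard promoter window printed above was the 1 window of a tested member with an EGR motif, which 4.7% of all windows held. The windows of Pparg and Nr1h3, which also differed between the genotypes, held no EGR motif. Any part of the motif in these differences was not tested.

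Nr1h3 was higher in Egr2MKO at all 4 times. At basal it stood at 28.3 and 27.0 TPM against 14.9 and 12.6 TPM (0.96 ± 0.09, adjusted p = 2e-05 by limma), at 1 h at 25.5 and 24.9 against 12.2 and 12.4 TPM (0.98), and at 6 h at 28.0 and 26.1 against 13.6 and 15.7 TPM (0.84). The 6 h call was lost with only the groups compared. At 24 h the values were 22.8 and 21.0 against 17.5 and 17.6 TPM, a difference of 0.30 that was lost with other scalings and without Egr2WT 24 h replicate 1 (0.30) or 2 (0.30) or Egr2MKO 24 h replicate 1 (0.24). Libraries of the genotypes did not overlap at any time.

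**Figure D4:**
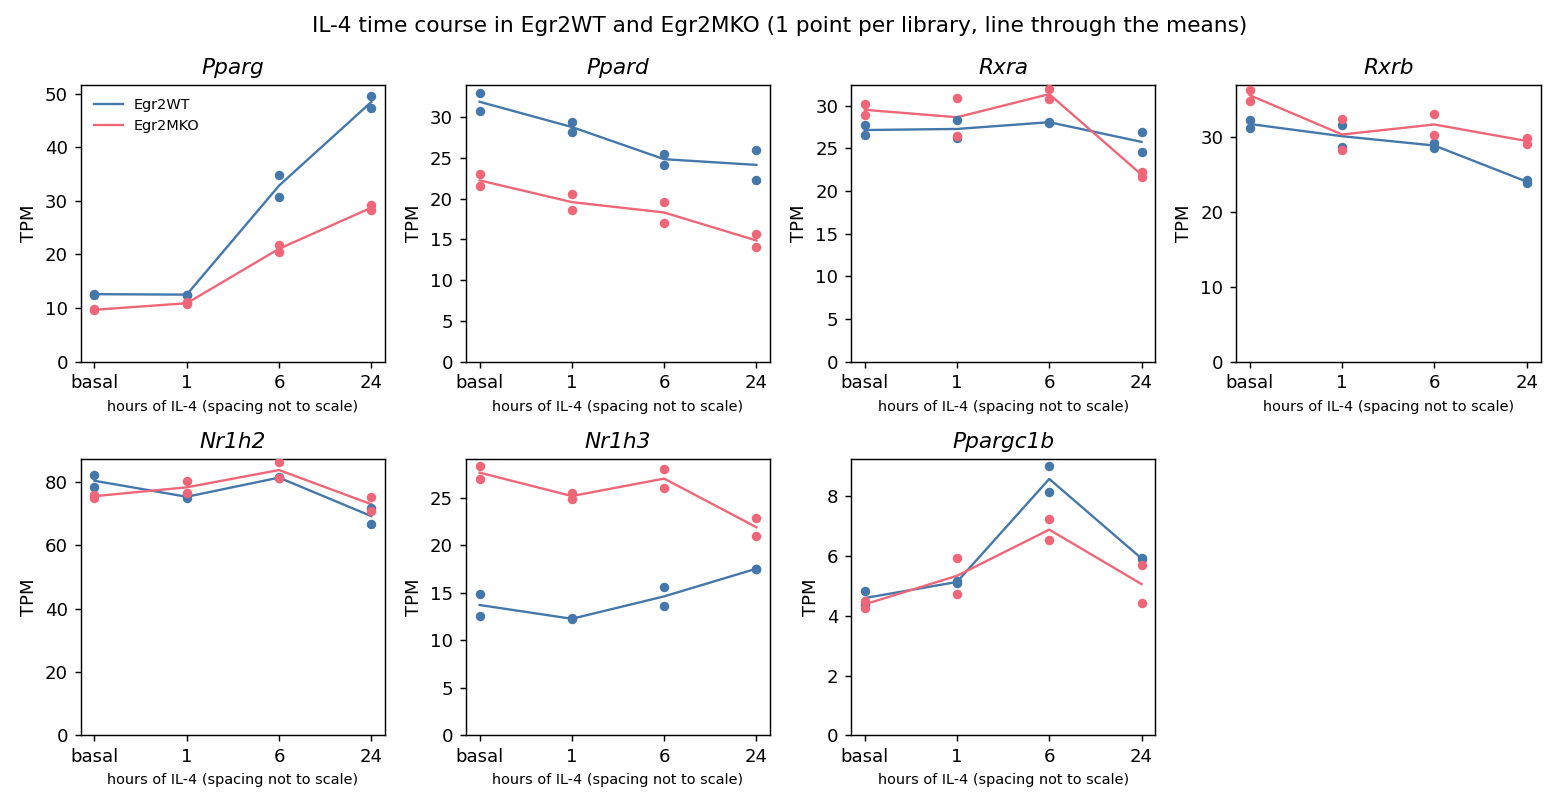
TPM of the 7 tested genes at basal and 1, 6 and 24 h of IL-4 (times not spaced to scale) in Egr2WT and Egr2MKO, with a point for each library and lines through group means. Egr2MKO lies below Egr2WT for Pparg and Ppard and above it for Nr1h3.

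At 24 h Rxra (-0.22) and Rxrb (0.28) also passed, with Rxrb lost under other scalings and without Egr2WT 24 h replicate 2 (0.27) or Egr2MKO 24 h replicate 2 (0.27). Rxra was lost with only the groups compared, without a filter, and without Egr2WT 24 h replicate 1 (-0.16), Egr2MKO basal replicate 2 (-0.22) or Egr2MKO 24 h replicate 1 (-0.24) or 2 (-0.20). With median-ratio or quantile scaling 0 members were higher and 3 lower at 24 h, in place of 2 (of all genes, 25.9%) and 3 (11.5%), and the median of all genes was 0.12 as deposited.

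The response itself differed between genotypes for 0 of 7 members at 1 h (0.0166% of genes, 0 members under an unadjusted p of 0.05 by limma), 0 at 6 h (1.1%, with 1 such member) and 2 at 24 h (12.6%). The Nr1h3 response at 24 h was lower in Egr2MKO by -0.66 ± 0.12 (adjusted p = 0.0038 by limma). For Pparg the difference was -0.39 ± 0.10 (adjusted p = 0.021 by limma). That call was lost, at -0.35 to -0.40, without Egr2WT basal replicate 1 or 2, Egr2WT 24 h replicate 2, Egr2MKO basal replicate 1 or 2, or Egr2MKO 24 h replicate 1. For Rxra the difference was -0.34 (adjusted p = 0.062 by limma), and it passed with median-ratio scaling (-0.46, adjusted p = 0.020), with quantile normalization (-0.44, adjusted p = 0.026), and without Egr2MKO 1 h replicate 1 or 2 (adjusted p = 0.037 in each).

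Targets moved in both directions in Egr2MKO at 24 h. Of 11 PPAR target genes 1 was higher and 4 lower (median -0.14), and of 12 LXR target genes 6 were higher and 2 lower (median 0.23), beside a median over all genes of 0.12, of which 25.9% were higher and 11.5% lower. Of 15 coregulator genes 9 were higher and 0 lower (median 0.33). These list counts are for TPM as deposited, with 3131 of all genes higher and 1389 lower. With median-ratio scaling 1793 of all genes were higher and 2110 lower, so no rise or fall of a list is read from the counts.

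The F1 hybrids asked whether a difference between strains stayed with the allele when both genomes shared the same cells. Ratios are the log2 of the C57 allele value over the other allele's, each with 1 added, from 2 libraries per group and without a test, and the depth behind them is unknown. Of the genes listed for C57xSPRET 99.5% have a length equal to the whole span from start to end, introns included, against 11.4% for C57xNOD. The expression tables list a shorter length for every member, and there Rxra and Rxrb start earlier than their C57xSPRET starts of 27710583 and 34032350, so ratios are placed beside the parental differences as values only. In C57xSPRET Nr1h3 had a ratio of -0.12 at basal, from C57 allele values of 35.1 and 33.4 against SPRET values of 37.2 and 37.3, where the parental strains differed by -2.36. With IL-4 its ratio was 0.25 where the parental one was -1.26. Both parental differences are from the strain experiment. In the time course parental Nr1h3 averaged 22.9 TPM in C57 and 54.4 TPM in SPRET at basal. At 24 h of IL-4 it averaged 20.7 and 29.5 TPM, so the strains were closer there than in the strain experiment. Pparg had -0.23 at basal and -0.10 with IL-4, and its allele values were 5.58 and 5.98 for C57 against 7.63 and 6.37 for SPRET at basal. They cover the gene from a later start only, so they are not placed beside the difference between the strains.

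Ppard and Rxra differed between alleles in the direction of the strains. Ppard had ratios of -0.62 and -0.49 beside parental differences of -0.74 and -0.45, and Rxra -1.17 and -0.66 beside -0.72 and -0.70. Both libraries of each group had the same sign for these genes. Rxra allele values at basal were 7.51 and 7.96 for C57 and 19.4 and 17.9 for SPRET. Nr1h2 (-0.09 and 0.02) and Ppargc1b (0.02 and 0.08) were near 0, and Rxrb was at -0.03 at basal with libraries of 0.17 and -0.58 under IL-4. Over all genes the median ratio was -0.05 at basal, with 8.67% of genes beyond 2-fold at basal and 7.29% with IL-4.

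**Figure D5:**
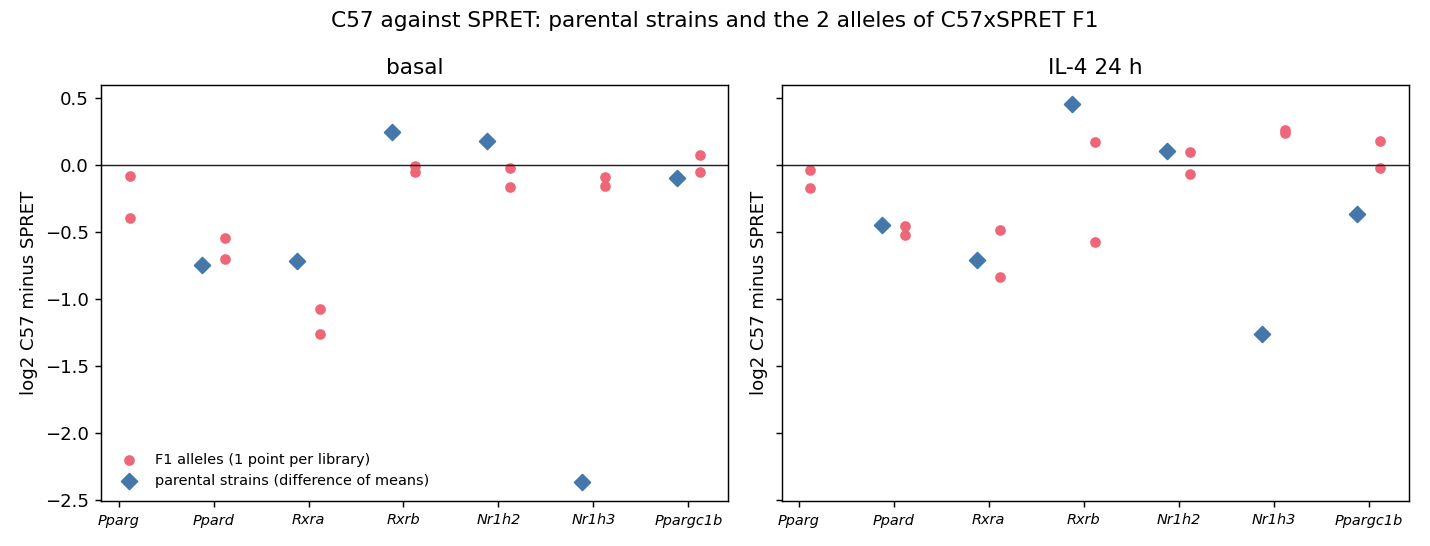
Log2 ratio of C57 to SPRET allele values in each C57xSPRET library (circles), at basal and with IL-4, beside the difference between the parental strains (diamonds, not drawn for Pparg, whose start differs between the tables). For Nr1h3 in C57xSPRET the basal ratio is -0.12 and the parental difference in the strain experiment -2.36.

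In C57xNOD fewer alleles could be told apart, and 83.4% of genes at basal and 86.3% with IL-4 had an allele at 0. Pparg, Ppard and Ppara were listed at 0 in every library. Rxra had ratios of 0.12 at basal and -0.13 with IL-4, beside parental differences of -0.75 and -0.62. Its libraries differed in sign, at -0.07 and 0.30 at basal and 0.07 and -0.33 with IL-4. Nr1h3 had 0.33 and -0.15 beside 0.79 and 0.50, and Rxrb had -0.30 and -0.10 beside 0.66 and 0.44. With IL-4 the Rxrb libraries were at -0.61 and 0.41. The C57xNOD values start Rxrb at 34032350 and Nr1h3 (minus strand) at 91195116, unlike the expression values. These ratios too are placed beside the parental differences as values only. Ppargc1b with IL-4 had -1.87 in 1 library and -0.21 in the other, so that its mean of -1.04 rests on 1 library.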

How the data were processed

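RNA-seq libraries were compared with limma 3.58.1 in R 4.3.3. Per the labels and the study's methods, the authors mapped reads of each strain to that strain's own genome with STAR, shifted them to mm10, and quantified genes with HOMER, so the deposited unit is TPM in 3 tables. The allele values are labelled TPM. Per the study's methods the authors weighted each transcript's read count by the ratio of reads overlapping strain variants. This deposited score was used only to set alleles side by side. Columns with the authors' DESeq2 fold changes and p-values were not used, nor were 8 sample columns of another table.

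A gene entered a fit if 2 or more libraries had it at 1 TPM or above (11907, 12088 and 12079 genes). TPM was log2-transformed after adding 1, with 1 mean per group, all libraries of a table in 1 model, trended empirical Bayes variances and Benjamini-Hochberg adjustment. The fit was tested on simulated data. Members and gene lists were chosen with earlier results of these data known. Members are named in every comparison, and for each of the 5 lists up to 3 genes with the largest mean change among those passing in at least 3 strains. Alternatives were other pseudocounts (0.1 and 5), other filters, median-ratio and quantile scaling, a robust prior, fits of the groups compared alone, the replicate number as a block, and leaving out each library.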

Additional observations from a re-analysis of the deposited data

Results flagged for a closer look

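The IL-4 response differed between strains or genotypes, by a test of the difference itself (interaction in limma, adjusted p under 0.05), in 18 member values, each on the log2 scale.

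In the strain experiment against C57, Pparg responded less in BALB (-1.02) and NOD (-1.03), and the Nr1h3 response was lower in SPRET (-1.11), where it fell while C57 changed little. These 3 kept their call in every setting tried, leaving out each library included. Rxrb differed by -0.22 in BALB, 0.22 in NOD and -0.21 in SPRET, and Ppard by 0.25 in NOD and -0.30 in SPRET. Nr1h3 differed by 0.29 and Ppargc1b by 0.50 in NOD. Of these, the Rxrb value in BALB and all but the Pparg value in NOD were lost with median-ratio scaling, and the Rxrb values in all 3 strains and the other 3 in NOD were lost without at least 1 library.

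In the time course, SPRET minus C57, Nr1h3 differed by -0.66 and Ppargc1b by 0.81 at 6 h. At 24 h Nr1h3 differed by -0.72, Rxrb by -0.58, Rxra by -0.32 and Ppargc1b by 0.46, the last 2 being lost without at least 1 library, Rxra also with median-ratio and Ppargc1b with quantile scaling.

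In the Egr2 experiment, Egr2MKO minus Egr2WT at 24 h, Pparg differed by -0.39 and Nr1h3 by -0.66. The Pparg call was lost in 6 of 16 fits without 1 library.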

How the results depend on the processing

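Of 224 tested member values 92 passed. The values followed one by one are those 92 and 30 that passed only under another setting; this choice was made after the first results of the comparison of settings were seen. Another 102 passed in no fit and 41 of those turned sign under at least 1 setting, so no direction is given for them. Of the 92, calls lost numbered 13 with median-ratio scaling (1 turned), 11 with quantile normalization, 20 with only the groups compared, 4 without a filter, 2 with a robust prior and 1 with a pseudocount of 0.1, and 0 with a pseudocount of 5. Without each library in turn 69 kept the call, 23 lost it at least once and 0 turned sign. Why calls were lost under other scalings was not tested.

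With only the groups compared, 4 in place of 8 Egr2WT responses and 8 in place of 13 differences of Egr2MKO from Egr2WT passed. Without 1 library, Egr2WT responses numbered 5 to 8 and differences in response between genotypes 1 to 3, in place of 2. Signs turned for Rxrb in NOD with IL-4 (-0.066 with median-ratio, -0.011 with quantile scaling) and its difference in response from C57 (-0.0093 with median-ratio), for basal NOD minus C57 of Nr1h2 (0.28 and 0.016) and Ppargc1b (0.13 and 0.22), and for the Pparg response of SPRET minus C57 (-0.37 with a pseudocount of 5, -0.13 and -0.18 with the scalings). Of these turned values, 0.28 for Nr1h2 and -0.37 for Pparg passed. Without 1 library the signs of Rxra in NOD (-0.051 to 0.0079), of the Nr1h3 response in PWK minus C57 (-0.23 to 0.016) and of Rxra: IL-4 response, SPRET minus C57 (-0.078 to 0.079) turned; none of the 3 had passed.

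The C57xSPRET ratio moved by more than the spread of its 2 libraries for Ppard (-0.57 and -0.30 with IL-4 at pseudocounts of 0.1 and 5, -0.44 at basal at 5), Rxra at basal (-0.89 at 5) and Nr1h3 with IL-4 (0.23 at 5). Shares of the sum of squares, called moved where the change exceeded the residual share, were for Pparg 18.1% and 21.2% strain and 74.5% and 73.4% IL-4 (pseudocount of 0.1 and median-ratio scaling). For Rxrb they were 68.2% strain and 17.0% IL-4 with median-ratio scaling. For Nr1h3 strain took 92.3% and 88.6%, and IL-4 1.02% and 2.65%, with IL-4 entered first and with median-ratio scaling. For Ppargc1b strain took 76.4% and IL-4 14.9% with IL-4 entered first, and strain 76.2% at a pseudocount of 0.1.

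Same-numbered libraries deviated together little on average. The mean correlation of their residuals was -0.02 in the Egr2 experiment, 0.03 across strains and 0.04 over the time course. Of the pairs 0 of 24, 2 of 14 and 6 of 24 were over 0.1. In groups of 2 libraries the residuals mirror each other, so values repeat and the 24 pairs are not separate. Same-numbered BALB pairs had 0.33, 0.15 and 0.09, and time-course pairs ran from -0.14 to 0.27. With the replicate number as a block 0 of the 92 calls were lost. The counts stayed at 14 strain responses, 23 basal differences and 10 differences in response. They also stayed at 16 time-course responses and 6 of their differences. In the Egr2 experiment they stayed at 8 Egr2WT responses, 13 genotype differences and 2 differences in response between genotypes. The block gave same-numbered libraries of different strains or genotypes a shared effect. It cannot take up pairing that differs from strain to strain, so whether such pairing matters for the calls is not decided by it.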
